A study of Arabidopsis thaliana with 18 samples.

Results

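Gene expression was compared in the shoots of AOpro(mut)-AO Arabidopsis plants that were resupplied with nitrate after N starvation and in those that were starved only. The comparison took 6 of the 18 arrays of the series, 3 from plants kept for 3 days on N-free solution and 3 from plants given 10 mM KNO3 for 24 h after that. Of 21059 genes tested, 147 (0.698%) were called higher and 179 (0.85%) lower with KNO3 resupply. AOpro(mut)-AO plants carry the ao T-DNA knockout (fin4-2), in which the aspartate oxidase gene was put back under its own promoter with the binding site for NIN-LIKE PROTEIN (NLP) transcription factors mutated. AOpro(wt)-AO plants carry the same knockout and the same gene behind the intact promoter. Each genotype was 1 transgenic line in the Col background, each array held the pooled shoots of a few seedlings as a biological replicate, and all plants grew hydroponically under continuous light. The N-free solution held added K2SO4. There was no set of arrays from plants of the later age that stayed on N-free solution, and none given another potassium salt, so nitrate, potassium and 1 more day of age cannot be told apart. The labels call the tissue shoots, and the summed signal of 9 green leaf genes was 1560 to 1860 times the array's 75th percentile in starved and 1500 to 1730 times in resupplied plants.

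Nitrate is both a nitrogen source and a signal. NLP proteins bind nitrate-responsive elements in the genes for nitrate transporters, nitrate and nitrite reductases and the reductant they use, and a further set of repressors, glutaredoxins and cytokinin genes follows when nitrate reaches a starved plant. Aspartate oxidase carries out the first step of NAD synthesis in the plastid. During N starvation, plants raise high-affinity nitrate uptake, recycle amino acids and often build up anthocyanin and defence transcripts.

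All levels below are log2 signals relative to the 75th percentile of their array, so that 0 marks a bright gene. Values near -9 are at the background, and some signals of -7.34 or lower were also not above it. A gene was called when a probe reached an adjusted p of 0.05 or less in limma (Benjamini-Hochberg) with a log2 change of at least 1, and values are those of its brightest probe. By adjusted p alone, 3287 genes (15.6%) were higher and 2995 (14.2%) lower, and the median log2 change over all genes was 0.007. Every list or family count below is to be read beside these shares, or beside 0.698% and 0.85% for calls. The 3 resupplied arrays all lay above the 3 starved arrays for 23.5% of genes and all below for 21.5%. The change differed between the 2 lines (interaction) for 1297 genes (6.16%). With normexp background correction, which adds an offset to every signal, 49 and 61 genes were called higher and lower, and with normexp and quantile normalization 72 and 56. Leaving out starved replicate 1 raised the number of falling genes to 279. The arrays came from several slides, 2 of which held both groups. With slide as a term 156 and 205 genes were called, among them 128 of the 147 and 165 of the 179. Within those 2 slides the genes called by their brightest probe moved in the called direction with 1 exception among 136 rising and 168 falling genes. The same arrays had made the calls, so this agreement was largely fixed beforehand and is no separate support.

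**Figure D1:**
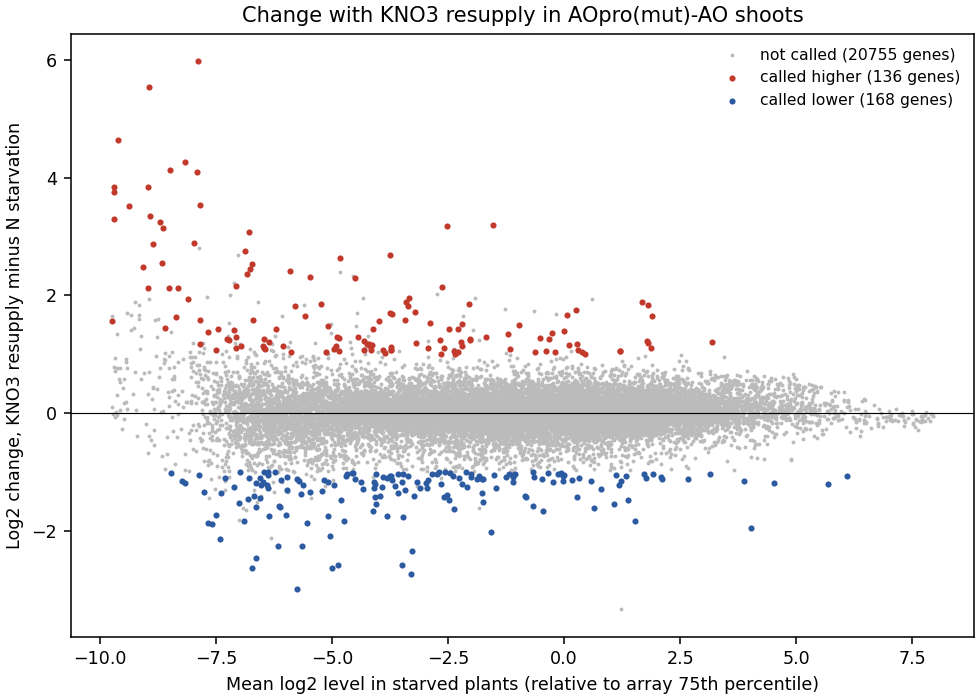
Log2 change with KNO3 resupply in AOpro(mut)-AO plants (vertical axis, difference of the means of 3 arrays) against the mean log2 level in starved plants (horizontal axis, relative to the 75th percentile of each array) for the 21059 genes tested, each by its brightest probe. The 136 genes called higher and 168 called lower by that probe are coloured. Of the genes called by that probe, 22 rising genes were not above background on any starved array and 28 falling genes on any resupplied array, and their heights are fitted differences, not measured folds.

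The genes for reducing nitrate gave no calls. Of 12 genes for nitrate reduction and its reductant supply, 0 were called by limma, 0 were higher and 1 lower by adjusted p alone and 1 higher and 1 lower at an unadjusted p under 0.05, with a median log2 change of 0.02. NIA2, the main nitrate reductase gene, measured 5.24, 5.08 and 4.92 in starved and 5.32, 5.34 and 5.46 in resupplied plants, a log2 change of 0.30 ± 0.11 (SE, adjusted p = 0.051). NIR1, which encodes nitrite reductase, measured 3.69, 3.62 and 3.40 in starved and 3.60, 3.66 and 3.59 in resupplied plants (0.05 ± 0.11, adjusted p = 0.77). The 3 resupplied arrays were the higher ones for NIA2 and lay within the starved range for NIR1. In AOpro(wt)-AO plants NIR1 rose by 1.05 and NIA2 by 0.98, and the change differed between the lines for both (interaction adjusted p = 0.0029 and 0.018), as it did for NIA1 (0.10 ± 0.12 against 0.78, 0.028) and UPM1, which makes the siroheme of nitrite reductase (0.02 ± 0.08 against 0.66, 0.0056). The starved means of NIR1, NIA2, NIA1 and UPM1 were 3.57, 5.08, 3.23 and 1.56. They lay above 2.81, 4.26, 1.32 and 0.87 in starved AOpro(wt)-AO plants. Their resupplied means were 3.62, 5.38, 3.34 and 1.58 against 3.86, 5.24, 2.1 and 1.52.

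Among 17 tested nitrate transporters, 0 were called higher and 1 lower. By adjusted p alone 3 rose and 4 fell, beside 15.6% and 14.2% of all genes (median 0.19). NRT2.5, a high-affinity transporter of long N starvation, was called lower with -6.55, -5.31 and -5.08 in starved and -9.06, -5.84 and -8.84 in resupplied plants (-2.26 ± 0.68, adjusted p = 0.024). Resupplied replicate 2 lay within the starved range and was the 1 resupplied array above background, and the call was lost without starved replicate 2 or 3 or resupplied replicate 1 or 3 (log2 change -2.09, -1.98, -1.69 and -1.80, adjusted p 0.08 to 0.11) and with slide as a term (-2.12, adjusted p = 0.055). CLC-A, the vacuolar nitrate-proton exchanger, rose below the fold limit, from 1.15, 0.90 and 1.06 to 1.72, 1.79 and 1.84 (0.74 ± 0.07, adjusted p = 4.5e-05), with separate groups and a larger rise of 1.62 in AOpro(wt)-AO plants (interaction adjusted p = 8e-04). Its means were 1.04 starved and 1.78 resupplied, against 0.24 and 1.87 in AOpro(wt)-AO plants. NRT1.1, the dual-affinity transporter and nitrate sensor, fell by 0.40 (0.021).

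Downstream of nitrite, 1 of 14 ammonium assimilation genes was called higher and 1 lower. ASN1, a glutamine-dependent asparagine synthetase known to be dark-inducible, measured -3.93, -3.72 and -3.49 in starved and -2.01, -1.68 and -2.42 in resupplied plants, a rise of 1.68 ± 0.35 (adjusted p = 0.0033). The groups did not overlap, and AOpro(wt)-AO plants rose by 1.27 (interaction adjusted p = 0.68). GSR 1 (GLN1;1), a cytosolic glutamine synthetase raised by N shortage, went from 3.26, 3.63 and 3.67 to 2.80, 2.65 and 2.66 by its brightest probe (-0.81 ± 0.12, adjusted p = 0.00039), and another of its probes passed both limits at -1.15, adjusted p = 3e-04. GLN1;4, of the same enzyme family, fell by 0.75 (adjusted p = 0.00048) and by 1.87 in AOpro(wt)-AO plants (interaction adjusted p = 0.0022).

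Of 16 tested ammonium, urea and amino acid transporters, 0 were called higher and 1 lower, and 2 rose and 6 fell by adjusted p alone (median -0.35). LHT1, which takes up amino acids, fell from 2.79, 3.34 and 3.31 to 2.21, 1.98 and 2.14 (-1.04 ± 0.13, adjusted p = 0.00017). Its groups were well apart, but the change came to -0.94, -0.96 and -0.97 without starved replicate 2, starved replicate 3 or resupplied replicate 2. DUR3, the urea transporter, fell by 0.78 (0.0012) and AMT1;1, the ammonium transporter, by 0.48 (0.003). Outside this list, and chosen after their values were seen, the oligopeptide transporter gene OPT1 fell by 1.55 (adjusted p = 5.3e-05), the amino acid transporter genes UMAMIT19 and LHT7 by 1.25 and 1.27, and ALN, which encodes allantoinase of purine breakdown, by 1.05. ALN fell further in AOpro(wt)-AO plants, by 2.07 (interaction adjusted p = 0.0013), and so did BCAT-2, a branched-chain aminotransferase (-1.08 ± 0.20 against -2.69, 0.0058), and NIT4, a nitrilase that acts on cyanoalanine (-1.11 ± 0.16 against -2.81, 0.0018). The fall of BCAT-2 came to -0.90 without starved replicate 2 and -0.97 without resupplied replicate 3, and that of NIT4 to -0.97 without starved replicate 2.

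Among 25 tested nitrate signalling regulators, 1 was called higher and 0 lower, and 7 rose and 5 fell by adjusted p alone (median 0.05). The called gene was HRS1, a repressor of phosphate and nitrate responses known mainly from roots, which was dim at -7.58, -7.03 and -6.62 in starved and -6.19, -4.82 and -6.32 in resupplied plants (1.3 ± 0.43, adjusted p = 0.037). Its rise rested on resupplied replicate 2, without which it was 0.82 (adjusted p = 0.16), and the call was also lost without starved replicate 1 or 2 (1.04 and 1.32, adjusted p = 0.12 and 0.081) and with slide as a term (1.41, adjusted p = 0.058). The LBD genes, which encode repressors of N-responsive genes, rose below the fold limit, LBD37 by 0.51 (adjusted p = 0.0036) and LBD39 by 0.40 (0.019). LBD37 and LBD39 rose by 1.38 and 1.93 in AOpro(wt)-AO plants (interaction adjusted p = 0.0059 and 0.00027). BT2, a scaffold protein gene that restrains nitrate use, measured 1.62, 1.26 and 0.94 in starved and 1.93, 2.06 and 1.25 in resupplied plants (0.47 ± 0.24, adjusted p = 0.17), overlapping between the groups, against a rise of 2.97 in AOpro(wt)-AO plants (interaction adjusted p = 0.0018). The starved means of LBD37, LBD39 and BT2 were 1.07, 0.94 and 1.27, above 0.01, -1.19 and -0.69 in AOpro(wt)-AO plants. Their resupplied means were 1.58, 1.34 and 1.75 against 1.39, 0.75 and 2.29.

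CC-type glutaredoxins are small thiol proteins of land plants, some of which are known nitrate-induced growth repressors. Of 20 tested, 4 were called higher and 3 lower, and 9 rose and 7 fell by adjusted p alone (median 0.32). The 4 that rose are the neighbouring loci AT4G15660, AT4G15670, AT4G15680 and AT4G15690, whose near-identical copies may share probe signal. AT4G15670 measured -3.99, -4.52 and -4.80 in starved and -3.20, -2.99 and -3.24 in resupplied plants (1.29 ± 0.22, adjusted p = 0.0011), and AT4G15680 rose by 1.17 (0.0073). The 3 resupplied arrays were all higher in each of the 4 genes. In AOpro(wt)-AO plants AT4G15660 and AT4G15690 rose by 4.86 and 4.46 (interaction adjusted p = 2.1e-07 and 2.2e-05). Their starved means were -2.29 and -2.65, above -6.67 and -6.43 in AOpro(wt)-AO plants. Their resupplied means were -1.25 and -1.65 against -1.81 and -1.97. AT4G15670 and AT4G15680 were not above background on any starved AOpro(wt)-AO array, so no size is given for their rises there, and the test of the difference passed for both (interaction adjusted p = 6.4e-06 and 6.1e-05). AT4G15660 (1.04) and AT4G15690 (1.00) stood at the fold limit and dropped to 0.88 to 1.00 without starved replicate 2 or 3 or resupplied replicate 2. The members that fell were GRX480, a partner of TGA factors in salicylic acid signalling (-0.55, 0.08 and -0.23 against -1.06, -1.69 and -1.46, -1.17 ± 0.23, adjusted p = 0.0024), AT3G62960 (-1.09 ± 0.15, 0.00031, under the limit at -0.97 and -0.95 without starved replicate 2 or resupplied replicate 3, and at -2.74 in AOpro(wt)-AO plants, interaction adjusted p = 0.0013), and GRXS13 by a probe other than its brightest (-1.55, adjusted p = 0.0037).

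Cytokinin carries a nitrogen signal through the plant, and type-A response regulators are its rapid targets. Of 21 tested genes of type-A regulators and cytokinin metabolism, 2 were called higher and 1 lower, and 7 rose and 1 fell by adjusted p alone (median 0.19). RR5 (ARR5) rose from -2.23, -2.58 and -2.29 to -1.20, -1.27 and -1.44 (1.06 ± 0.09, adjusted p = 1.5e-05) and ARR6 from -2.38, -2.94 and -2.44 to -1.60, -1.62 and -1.24 (1.1 ± 0.14, 0.00022). Groups were apart in both, with changes just under 1 without starved replicate 2 (0.95 for RR5, 0.92 for ARR6) or, for ARR6, resupplied replicate 3 (0.98). The AOpro(wt)-AO rises of 1.83 and 3.14 were larger (interaction adjusted p = 0.0036 and 0.00015). RR5 and ARR6 had starved means of -2.36 and -2.58, against -2.37 and -4.76 in AOpro(wt)-AO plants. Their resupplied means were -1.31 and -1.48 against -0.53 and -1.61. The gene called lower was IPT7, a cytokinin synthesis enzyme, which fell from -6.45, -5.86 and -6.01 to -7.90, -7.87 and -7.34 and was not above background on any resupplied array (at least 2.67-fold lower, adjusted p = 0.0012). IPT3, the synthesis gene known to follow nitrate, measured 0.19 ± 0.11 (adjusted p = 0.23) against 1.58 in AOpro(wt)-AO plants (interaction adjusted p = 0.00068). Its means were -1.41 starved and -1.22 resupplied, against -2.72 and -1.14 in AOpro(wt)-AO plants. AHP4, a histidine phosphotransfer protein of the cytokinin relay that is not in this list, fell from -3.52, -3.0 and -3.32 to -5.23, -5.77 and -5.87 (-2.34 ± 0.30, adjusted p = 0.00022).

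**Figure D2:**
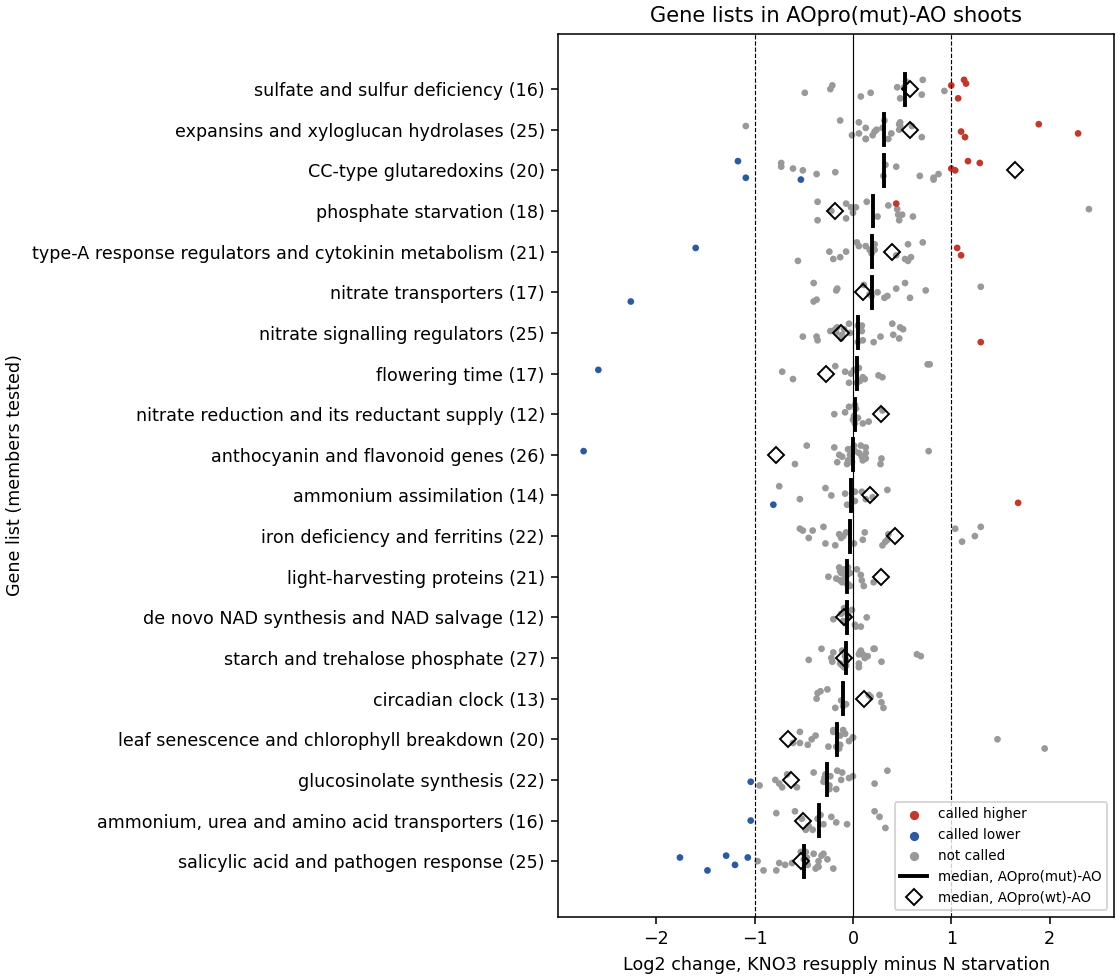
Log2 change with KNO3 resupply of each tested member (points) of 20 gene lists in AOpro(mut)-AO plants, with the list median (bar) and the median of the same genes in AOpro(wt)-AO plants (open diamond). Colours mark genes called by any probe, points lie at the brightest probe, and dashed lines mark a log2 change of 1 in either direction. The sulfur list and the expansin and xyloglucan hydrolase list have medians of 0.53 and 0.32, and the salicylic acid list has a median of -0.50.

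Some genes known from anthers rose from near the background. The tapetum is the anther layer that feeds pollen and makes the sporopollenin of its wall. AMS, the transcription factor that governs this programme, measured -9.50, -8.55 and -8.84 in starved and -4.78, -4.87 and -5.70 in resupplied plants, at least 4.96-fold higher (adjusted p = 0.0012). LAP5, a polyketide synthase of sporopollenin, was measurable in both groups and rose from -5.54, -5.47 and -5.41 to -2.58, -2.91 and -3.98 (2.32 ± 0.31, adjusted p = 0.00024). ACOS5, the acyl-CoA synthetase of the same route, went from -9.27, -6.94 and -7.32 to -3.73, -4.39 and -4.83 (3.53 ± 0.88, 0.0095). It was above background on 2 of the 3 starved arrays, and without starved replicate 1 its rise was 2.81 (adjusted p = 0.04). For AMS, LAP5 and ACOS5 all 3 resupplied arrays were above all starved arrays, and replicate 3 was the lowest of the resupplied ones. MEE48 and AT5G07230 were not above background in starved plants and rose at least 2.99-fold and at least 5.07-fold (adjusted p = 0.0067 and 0.0029), and CYP704B1, a fatty acid hydroxylase of sporopollenin, at least 2.51-fold (adjusted p = 0.033), a call lost without starved replicate 1 or 3 or resupplied replicate 1 or 2 (adjusted p = 0.11, 0.075, 0.10 and 0.077). AT5G44540, annotated as related to a tapetum-specific protein, rose from -9.30, -8.67 and -8.86 to -3.05, -3.11 and -4.06, at least 16.3-fold (adjusted p = 0.0016).

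Several of the genes named for the size of their rise encode lipid transfer proteins, which carry lipids, and the family as a whole was not counted. AT5G62080 went from -7.97, -7.76 and -7.95 to -1.56, -1.67 and -2.50, at least 45.9-fold higher (adjusted p = 0.00054). AT3G07450 rose from -6.39, -7.13 and -7.07 to -3.75, -3.89 and -4.70 (2.75 ± 0.56, 0.0029) and AT3G52130 from -5.86, -5.92 and -5.92 to -3.14, -3.40 and -3.95 (2.41 ± 0.35, 4e-04). None of these groups overlapped. A run of neighbours on chromosome 5 also rose, LTP3 from 1.88, 1.54 and 1.97 to 3.70, 3.50 and 3.66 (1.83 ± 0.37, adjusted p = 0.0027), AT5G59330 by 1.70 (0.00024) and LTP4 by 1.85 (0.025). The call of LTP4 was lost without starved replicate 2 or 3 or resupplied replicate 1 or 2 (1.58, 1.80, 1.35 and 1.88, adjusted p 0.055 to 0.11), and the 3 neighbours may share signal.

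In AOpro(wt)-AO plants LAP5 changed by 0.51. AMS, ACOS5, AT5G62080, AT5G44540 and the aspartyl protease gene AT5G24820 were there above background on 0 starved arrays and 1 resupplied array, so no change is given for them. The difference between the lines passed the test for LAP5 (interaction adjusted p = 0.027), AT3G52130 (0.039), AT5G59330 (0.02) and AT5G24820 (0.033), and missed it for AMS (0.086), ACOS5 (0.12), AT5G62080 (0.068) and AT5G44540 (0.068). The summed signal of the 19 anther and tapetum genes listed, on the same scale as that of the leaf genes, was 0.589 to 0.638 in starved, 0.907 to 1.09 in resupplied and 0.578 to 0.643 in not yet starved AOpro(mut)-AO plants. Of these 19 genes 8 were tested, and 7 were not above background on any of the 6 arrays, among them MS1, MS2, MYB80 and CYP703A2. AMS, ACOS5, MEE48, AT5G07230 and CYP704B1 entered the test only because they were above background on all 3 resupplied arrays, as did AT5G62080, AT5G44540 and AT5G24820 outside the list, so a count of called members would say nothing about the list. The other 3 tested members were above background on all 6 arrays, and of these LAP5 was called, while LAP6, a second polyketide synthase, was at 0.01 (adjusted p = 0.88) and DRL1 at 0.58 (0.00042). The summed signal of 10 floral organ identity genes was 0.401 to 0.497 in not yet starved, 0.92 to 1.23 in starved and 1.25 to 1.65 in resupplied AOpro(mut)-AO plants. It was thus already higher in starved than in not yet starved plants. With resupply 0 of the 9 tested were called or passed the adjusted p alone (AG 0.58 ± 0.26, adjusted p = 0.11, and SEP3 0.57 ± 0.24, 0.089). AG and SEP3 had means of -7.87 and -5.02 before starvation and -5.86 and -3.21 in starved plants. At an unadjusted p under 0.05, 3 of those 9 were higher. The part of floral tissue in these rises was not tested, and more cells of a type cannot be told apart from more RNA per cell in pooled shoots. With normexp the rises of AMS, ACOS5 and LAP5 came to 0.80, 0.99 and 1.49 (adjusted p = 0.58, 0.45 and 0.072), and that of AT5G62080 to 2.83 (0.022).

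**Figure D3:**
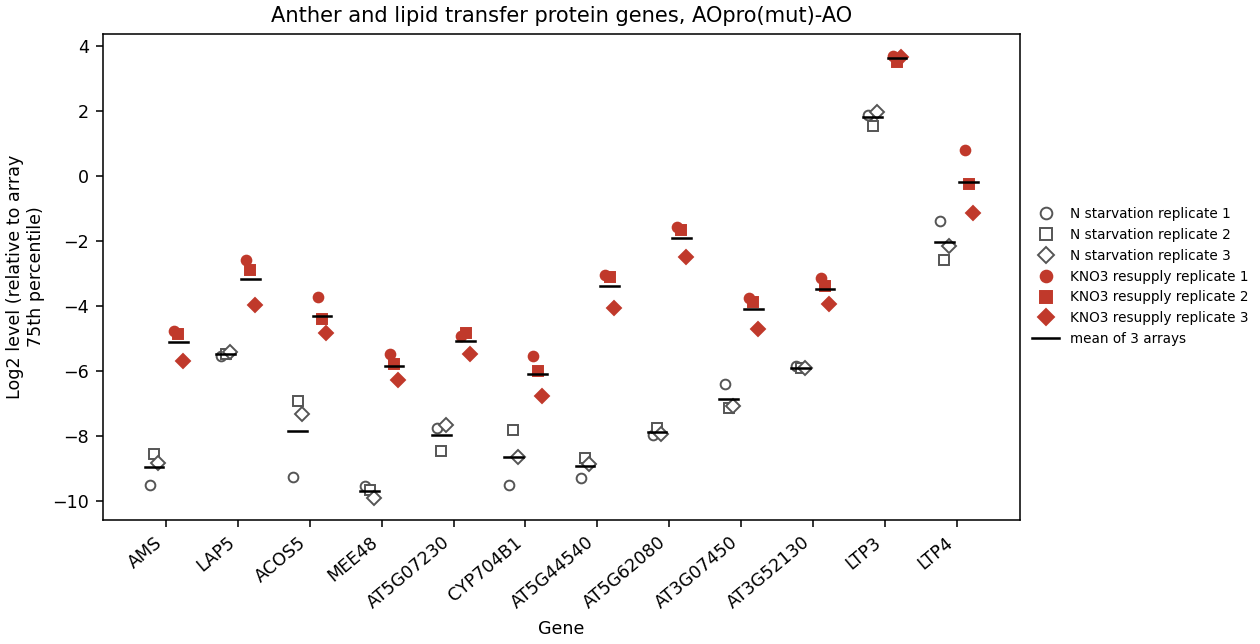
Log2 level of 12 genes known from the tapetum or of the lipid transfer protein family on each array of starved (open) and resupplied (filled) AOpro(mut)-AO plants, relative to the 75th percentile of the array, with group means as bars. The resupplied arrays lie above the starved arrays for all 12 genes. The starved arrays of AMS, MEE48, AT5G07230, CYP704B1, AT5G44540 and AT5G62080 were not above background, so those gaps are not measured folds.

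The next genes were named for the size of their rise or chosen after their values were seen (EXO, ESE3 and DIC2), and of them TCH4 and XTH33 belong to a counted list. PHI-1, an EXORDIUM-like gene, had the largest rise among called genes above background on all 6 arrays, from -1.45, -1.60 and -1.54 to 1.70, 0.72 and 2.57 (3.20 ± 0.58, adjusted p = 0.0015). DREB26, an AP2-type transcription factor, rose from -2.41, -2.81 and -2.35 to 0.77, -0.26 and 1.43 (3.17 ± 0.31, 4.4e-05). TCH4 (XTH22), a xyloglucan-modifying enzyme named for its response to touch, went from 1.62, 1.5 and 1.93 to 3.60, 2.95 and 4.18 (1.89 ± 0.33, 0.0011). No group overlapped, and in all 3 genes resupplied replicate 2 was the lowest and replicate 3 the highest. The same order held for XTH33 (-2.15, -3.08 and -1.39 against -4.61, -4.70 and -4.17, 2.29 ± 0.51, adjusted p = 0.005), for XTH19 (1.85 ± 0.34, 0.0018) and for AT1G77640, another AP2-type gene (2.68 ± 0.26, 3.8e-05). EXO, a growth gene responsive to brassinosteroid, rose by 1.65 (0.0042), and ESE3 and DIC2, an ethylene-inducible factor and a mitochondrial dicarboxylate carrier, by 1.75 (9e-05) and 1.67 (4.4e-05). These rises were found in AOpro(wt)-AO plants too, at 3.91 for PHI-1, 4.21 for DREB26, 3.26 for TCH4 and 3.09 for XTH33, and the difference between the lines did not pass the test, which does not show that the changes were alike (interaction adjusted p = 0.67, 0.19, 0.096 and 0.56).

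Across the listed expansins and xyloglucan hydrolases, which loosen and rebuild the wall of growing cells, 4 of 25 were called higher and 0 lower, and 12 rose and 0 fell by adjusted p alone, with a median of 0.32 beside 0.007 over all genes. The called members were XTH33, TCH4, XTH17 and EXLA1. EXLA1 went from 1.93, 1.70 and 2.02 to 3.06, 2.47 and 3.40 (1.1 ± 0.29, adjusted p = 0.014) and rose more in AOpro(wt)-AO plants (2.59, interaction adjusted p = 0.049), but lost its call without starved replicate 2 (1.01, adjusted p = 0.054) or resupplied replicate 3 (0.88, 0.063). XTH17, at 1.14 ± 0.38 (0.042), kept it in 2 of the 6 fits without 1 array (0.70 without resupplied replicate 3, 1.01 and 1.1 without starved replicates 2 and 3, and 1.19 without resupplied replicate 1, adjusted p 0.077 to 0.19). Of all 23 tested genes with an XTH symbol, 5 were called higher and 0 lower (median 0.29), XTH19, XTH18 (1.33, adjusted p = 0.0065) and XTH11 being those outside the list.

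**Figure D4:**
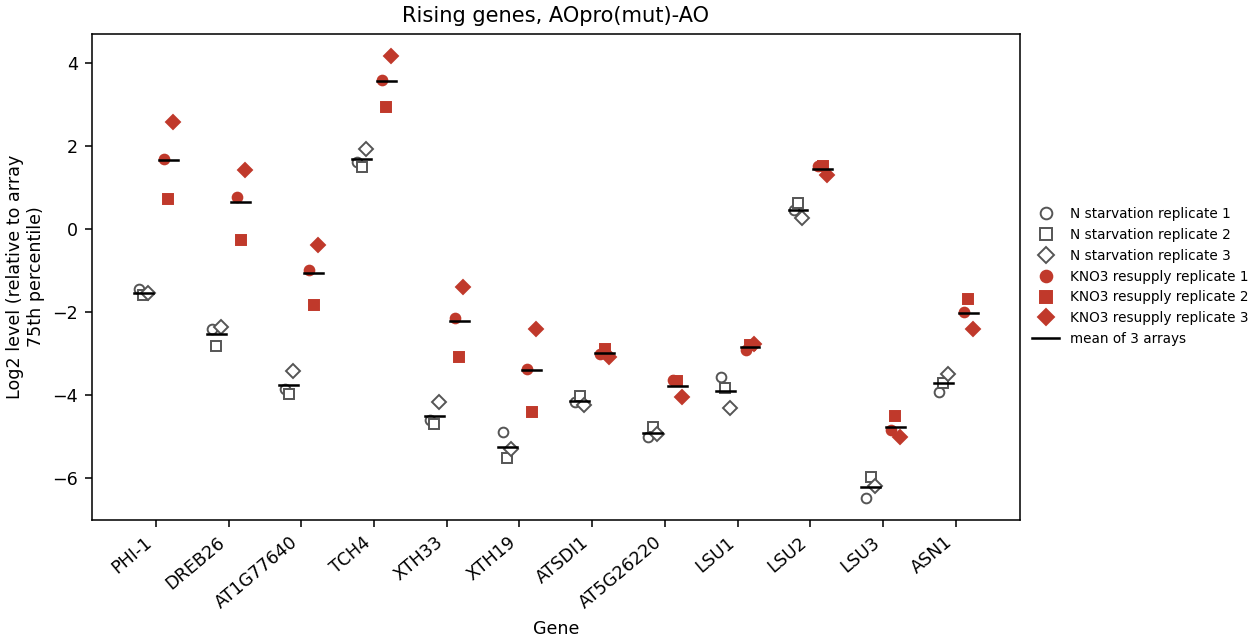
Log2 level of 12 rising genes on each array of starved (open) and resupplied (filled) AOpro(mut)-AO plants, relative to the 75th percentile of the array, with group means as bars. In the first 6 genes resupplied replicate 2 is the lowest of its group. The last 6 are the sulfur genes and ASN1, whose resupplied arrays lie closer together than those of the first 6.

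Sulfur deficiency genes, which plants raise when sulfur is short relative to nitrogen, were higher. Of 16 tested, 4 were called higher and 0 lower, and 10 rose and 0 fell by adjusted p alone (median 0.53). ATSDI1, which restrains glucosinolate synthesis under low sulfur, rose from -4.16, -4.02 and -4.24 to -3.0, -2.88 and -3.08 (1.15 ± 0.19, adjusted p = 0.00088). AT5G26220 (GGCT2;1), which recycles glutathione, rose from -5.02, -4.77 and -4.93 to -3.63, -3.65 and -4.04 (1.13 ± 0.13, 0.00012). The LSU genes, named for their response to low sulfur, rose in 3 of 4 tested members, LSU3 (outside the list) by 1.43 (adjusted p = 0.00012), LSU1 by 1.07 (0.0028) and LSU2 from 0.46, 0.62 and 0.26 to 1.51, 1.53 and 1.3 (1.00 ± 0.11, 5.9e-05). Groups were apart in every one, with LSU1 at 0.86 without starved replicate 3 and LSU2 at 0.91, 0.97 and 0.96 without starved replicate 3 or resupplied replicate 1 or 2. The adenylyl sulfate reductase gene APR2 rose by 0.70 (0.00025) and the vacuolar sulfate exporter gene SULTR4;2 by 0.71 (1.5e-05). ATSDI1, AT5G26220 and SULTR4;2 rose further in AOpro(wt)-AO plants, by 2.48, 1.84 and 1.3 (interaction adjusted p = 0.014, 0.043 and 0.0018). Before N starvation ATSDI1, AT5G26220, LSU1 and LSU3 stood at means of -2.52, -3.02, -2.03 and -4.41, above both later means. LSU2, APR2 and SULTR4;2 stood at 1.27, 1.73 and -0.40, between the starved means of 0.45, 1.24 and -1.07 and the resupplied means of 1.45, 1.95 and -0.36.

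Among genes of glucosinolates, sulfur-rich defence compounds, 0 of 22 genes were called higher and 1 lower, and 1 rose and 9 fell by adjusted p alone (median -0.26). In the methionine-derived branch, IMS2 (MAM3), a chain-elongation enzyme, fell by 0.79 (adjusted p = 0.00056), the aminotransferase gene BCAT4 by 0.72 (0.0022) and CYP79F1, the entry cytochrome, by 0.67 (0.0052). The called member, CYP79F2, was -4.60, -4.67 and -2.87 in starved and -5.20, -5.10 and -4.97 in resupplied plants (-1.04 ± 0.33, 0.033), and the fall came to -0.45 without starved replicate 3, which was above the other starved arrays. Without resupplied replicate 1, 2 or 3 its adjusted p was 0.09, 0.073 and 0.061, and with slide as a term 0.056.

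SESA5, a seed storage albumin, was at -9.54, -9.66 and -9.86 in starved and -4.91, -4.58 and -8.33 in resupplied plants, at least 2.81-fold higher (adjusted p = 0.0055), with resupplied replicate 3 not above background. The defensin gene LCR67 (PDF1.1) rose from -7.53, -7.81 and -8.36 to -3.31, -4.90 and -3.22, at least 12.3-fold (adjusted p = 0.0014), and the test of the difference between the lines passed (interaction adjusted p = 0.044), although it was not above background on any starved or resupplied AOpro(wt)-AO array. Before N starvation the means of SESA5 and LCR67 were -1.74 and -0.28. With normexp their rises were 0.77 and 1.54 and did not pass (adjusted p = 0.64 and 0.18). Of 8 tested seed genes SESA5 was the 1 called, and the summed signal of the 10 listed, of which 4 were not above background on any of the 6 arrays, was 0.025 to 0.0285 in starved, 0.034 to 0.0799 in resupplied and 0.516 to 0.958 in not yet starved plants. TSPO, a stress-induced membrane protein, rose from -4.87, -4.89 and -4.71 to -1.06, -2.12 and -3.38 (2.64 ± 0.66, 0.01), with all resupplied arrays higher and a mean of -2.84 before starvation. BSMT1, which methylates benzoic and salicylic acid, rose at least 8.43-fold (0.0028), and P5CS1, the key enzyme of proline synthesis, by 1.39 (adjusted p = 2.6e-05), from 0.06, 0.00 and -0.05 to 1.39, 1.47 and 1.31. Of the other genes with the largest rises, the peroxidase genes AT1G44970 and AT4G16270 rose by 2.14 (0.0069) and 1.96 (0.022) and the glyoxalase gene GLYI7 by 1.89 (0.045). GLYI7 lost its call in each of the 6 fits without 1 array (adjusted p 0.06 to 0.15) and AT4G16270 without starved replicate 1 or 3 or resupplied replicate 1 (adjusted p = 0.084, 0.05 and 0.089). With slide as a term their adjusted p was 0.087 and 0.054.

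Genes of salicylic acid and pathogen response, the defence against biotrophic microbes, were lower. Of 25 listed genes, 0 were called higher and 5 lower, 15 fell and 0 rose by adjusted p alone, and the median was -0.50 beside 0.007 over all genes. All 25 changes were below 0, from -1.76 to -0.20. ALD1, which makes the precursor of the immune signal pipecolic acid, fell from -3.72, -3.15 and -3.53 to -4.84, -5.53 and -5.31 (-1.76 ± 0.25, adjusted p = 0.00033). WRKY54, a transcription factor of this pathway, fell from 0.61, 1.00 and 0.77 to -0.12, -0.73 and -0.64 (-1.29 ± 0.15, 9.7e-05), and ACD6, an ankyrin-repeat membrane protein that promotes salicylic acid signalling, from 4.26, 4.80 and 4.53 to 3.49, 3.37 and 3.15 (-1.20 ± 0.12, 4.4e-05). In these 3 genes every resupplied array was below every starved array. PCC1 fell by 1.07 (7.1e-05, and by 0.95 and 0.99 without starved replicate 2 or resupplied replicate 3). FMO1, which acts after ALD1 on pipecolic acid, measured -3.85, -1.56 and -2.0 in starved and -3.37, -4.22 and -4.27 in resupplied plants (-1.48 ± 0.45, 0.025), with starved replicate 1 among the resupplied values, and lost its call without starved replicate 2 or 3 or resupplied replicate 2 or 3 (-1.03, -1.25, -1.35 and -1.33, adjusted p 0.078 to 0.12). PR1, the classical marker of the pathway, was at -0.91 ± 0.38 and did not pass (adjusted p = 0.094), except without starved replicate 1 (-1.20, adjusted p = 0.047). Before N starvation the means of WRKY54, ACD6, PCC1 and PR1 were 1.12, 4.83, 6.65 and 0.52. These lay above the starved means of 0.79, 4.53, 6.1 and 0.2. For ALD1 and FMO1 they were -4.44 and -3.64, below the starved -3.47 and -2.47. The resupplied means of the 6 genes, in this order, were -0.5, 3.34, 5.03, -0.71, -5.23 and -3.95, each below the mean before starvation.

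WRKY54, ACD6 and PCC1 fell in AOpro(mut)-AO plants more than in AOpro(wt)-AO plants, where their changes were -0.31, -0.26 and -0.07 (interaction adjusted p = 0.016, 0.0074 and 0.0043). LURP1, a defence gene outside the list, behaved likewise and fell from 3.63, 4.42 and 4.06 to 2.21, 1.99 and 2.05 (-1.96 ± 0.18, adjusted p = 3.2e-05) against -0.83 (0.022). AT3G48080, annotated as a lipase and disease resistance protein, fell by 1.59 (4.4e-05) against -0.51 (0.015). For UGT76B1, a glucosyltransferase of immune signals, the order was the other way, -1.64 ± 0.35 (adjusted p = 0.0042) from -2.53, -2.05 and -2.51 to -4.15, -3.52 and -4.34, against -3.61 (interaction adjusted p = 0.035). Before N starvation LURP1, AT3G48080 and UGT76B1 stood at means of 4.22, -0.87 and -2.58, beside starved means of 4.04, -0.67 and -2.36. Their resupplied means were 2.08, -2.26 and -4.

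**Figure D5:**
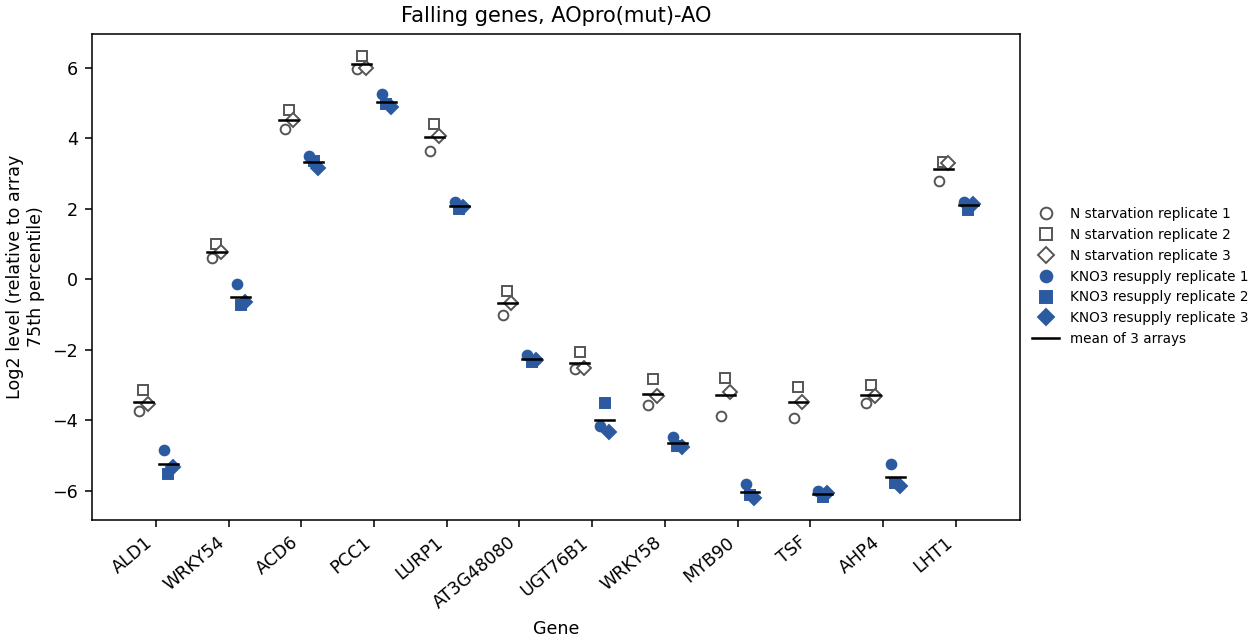
Log2 level of 12 falling genes on each array of starved (open) and resupplied (filled) AOpro(mut)-AO plants, relative to the 75th percentile of the array, with group means as bars. The first 8 are defence genes and the last 4 are MYB90, TSF, AHP4 and LHT1. Groups are apart for all 12.

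Gene families with 3 or more called genes, sorted by symbol, were also counted, beside 0.698% of all genes called higher and 0.85% lower. Of 58 tested WRKY genes, 5 were called lower and 0 higher (median -0.25), among them WRKY31 (-1.88, above background on 1 resupplied array, adjusted p = 0.019, and 0.064 to 0.09 without starved or resupplied replicate 2 or 3), WRKY62 (-1.48, 0.0013) and WRKY58 (-1.41, 7.6e-05, against -0.35 in AOpro(wt)-AO plants, interaction adjusted p = 0.014). Of 38 CRK genes, which encode cysteine-rich receptor-like kinases, 6 were called lower and 0 higher (median -0.35), among them CRK37 (-1.32, 7.9e-05), CRK20 (-1.23, 0.00035) and CRK26, which was above background on 1 of the 6 arrays and is given no fold. Of 48 RLP genes, the receptor-like proteins, 3 were called lower and 0 higher (median -0.36). They were RLP39 (-1.13, 0.0023), RLP34 (-1.04, 0.00066) and RLP41 (-1.02, 0.005), and without starved replicate 2 the 3 genes were at -0.88, -0.88 and -0.83. RLP34 was at -0.99 without resupplied replicate 2. The UGT family of glycosyltransferases had 3 of 52 called lower and 0 higher (median -0.10), UGT76E1 (-2.09, 2.8e-05, against -0.60 in AOpro(wt)-AO plants, interaction adjusted p = 0.0074), UGT73D1 (-1.84, 0.0035) and UGT76B1. MYB genes had 1 of 86 higher and 2 lower, with MYB90, MYB77 (1.21, 0.00011) and MYB61 (-1.01, 0.00046, above background on 1 resupplied array, and -0.96, -0.98 and -0.93 without starved replicate 2 or resupplied replicate 2 or 3). CYP genes, the cytochromes P450, had 5 of 157 higher and 1 lower, among them CYP704B1, CYP96A15, which hydroxylates wax alkanes (1.58, 0.0034), and CYP94B3, which oxidizes the jasmonate hormone (1.82, 0.05) and kept its call in 1 of the 6 fits without 1 array, the one without starved replicate 1 (adjusted p 0.052 to 0.18 in the others, and 0.067 with slide as a term).

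The largest other falls among called genes above background on all 6 arrays were those of the plant cadmium resistance gene PCR1 (1.03, 1.85 and 1.68 to -0.13, -0.23 and -0.59, -1.84 ± 0.24, 2e-04), of AT3G28510, an AAA-type ATPase (-2.03, 0.00044), of BG3, a beta-1,3-glucanase (-1.61, 0.0045), of MAPKKK20 (-1.75, 4.5e-05) and of AT3G13610 (F6'H1), which makes the coumarin scopoletin (-1.67, 0.016, lost without starved replicate 2 or 3 or resupplied replicate 3 at adjusted p = 0.076, 0.068 and 0.062). The unnamed loci AT5G63225 and AT2G44240 fell by 1.75 (0.0023) and 1.67 (0.0011), with groups that did not overlap.

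MYB90 and TSF had the largest falls among called genes above background on all 6 arrays. MYB90 (PAP2), an activator of anthocyanin synthesis, went from -3.88, -2.79 and -3.20 to -5.80, -6.11 and -6.19 (-2.74 ± 0.59, adjusted p = 0.0044). TSF, a close relative of the floral promoter FT, went from -3.92, -3.06 and -3.47 to -6.00, -6.16 and -6.07 (-2.59 ± 0.30, 0.00012). The groups were apart in both, and the resupplied levels stood beside means of -5.69 and -5.74 before N starvation. With normexp the falls were -1.78 and -1.67 (adjusted p = 0.053 and 0.051). In AOpro(wt)-AO plants both were above background on 3 starved arrays and on 1 resupplied array, with resupplied means of -8.64 and -8.04, so no size is given for their falls there, and the test of the difference passed (interaction adjusted p = 0.013 and 0.0031). AHP4 changed by -4.38 there (0.016). In the anthocyanin list MYB90 was the 1 gene called. Of 26 tested members, 0 were called higher and 1 lower, 1 rose and 2 fell by adjusted p alone, and the median was 0.00 against -0.78 for the same genes in AOpro(wt)-AO plants. PAP1 (MYB75) was at -0.59 ± 0.22 (adjusted p = 0.066) against -2.22 in AOpro(wt)-AO plants (interaction adjusted p = 0.011). DFR, an enzyme of anthocyanin synthesis, was at -0.05 ± 0.25 (0.89) and TT4, chalcone synthase, at 0.28 ± 0.34 (0.58), both with overlapping groups. In the flowering list of 17 genes TSF was the 1 called, and 2 rose and 3 fell by adjusted p alone, beside 15.6% and 14.2% of all genes. FT was at -0.04 ± 0.14 (0.84), CO, its activator, at -0.61 ± 0.10 (0.00064) and FD, its partner, at -0.72 ± 0.16 (0.0054). FT and FD changed by -0.83 and -2.04 in AOpro(wt)-AO plants (interaction adjusted p = 0.035 and 0.0061).

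Of the 168 genes called lower by their brightest probe, 28 were not above background on any resupplied array, and of the 136 called higher, 22 were not on any starved array. The folds of such genes are given as bounds, set against the lowest signal above background. AT2G26695 fell at least 3.42-fold (adjusted p = 1.9e-05), from -5.74, -5.51 and -6.01 to -8.45, -8.28 and -9.53. ARFD1A and ARFD1B, neighbouring ADP-ribosylation factor genes, fell at least 1.74-fold and at least 1.87-fold (7.1e-05 and 3.8e-05), and their probes may share signal. RL1, a RADIALIS-like factor, fell at least 2.59-fold (0.0048), AT1G53620 at least 2.25-fold (0.001), AT1G55230 at least 1.56-fold (0.0026) and LBD22 at least 1.02-fold (0.0016). ERF14 (adjusted p = 0.009) was not above background in either group, and AT5G54700 (0.00038) was above background on 1 starved and on 0 resupplied arrays, so no fold is given for them. AT5G54700 was at 0.49 in AOpro(wt)-AO plants (interaction adjusted p = 0.0043), and ARFD1A at -0.96 (0.027). Among rising genes, AT3G17675 and AT4G20420 rose at least 2.99-fold and at least 3.62-fold (0.0014 and 0.0045), and AT5G24820 at least 5.47-fold (0.00034). AT3G17675 and AT4G20420 were above background on all 3 resupplied and on 0 starved arrays. They may thus have entered the test only through the resupplied group, as AT5G24820 did, and their adjusted p-values are no separate support for a rise. RSH4 fell at least 1.09-fold (0.011), a call lost without starved replicate 3 (adjusted p = 0.052).

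In the remaining lists limma called no member among 21 light-harvesting proteins (median -0.06, range -0.25 to 0.21, with 0 rising and 0 falling by adjusted p alone and 1 and 3 at an unadjusted p under 0.05), 27 starch and trehalose phosphate genes (median -0.07, with 4 and 0, then 4 and 2, by the same counts), 20 senescence and chlorophyll breakdown genes (median -0.16, 0 and 7, then 0 and 10), 22 iron genes (median -0.03, 0 and 2, then 2 and 2), 13 clock genes (median -0.10, 0 and 0, then 0 and 0) or 12 genes of NAD synthesis and salvage (median -0.06, 0 and 2, then 1 and 2). AO itself measured -0.87, -1.46 and -1.63 in starved and -1.25, -1.26 and -1.35 in resupplied plants, with overlapping groups and a change of 0.03 ± 0.19 (adjusted p = 0.91). In AOpro(wt)-AO plants AO was not called higher at 24 h either, with means of 1.06 starved and 0.84 resupplied (-0.22, adjusted p = 0.35). The difference between the lines did not pass the test (interaction adjusted p = 0.62). Of 18 phosphate starvation genes (median 0.20, 4 rose and 0 fell) SRG3 (GDPD1), a phosphodiesterase, was called through a probe other than its brightest (1.17, adjusted p = 0.0067), and its brightest probe was at 0.44 ± 0.16 (0.052). SAG12, a late senescence protease, spread from -3.95 to 0.14 among starved and from -0.87 to 0.58 among resupplied arrays (1.95 ± 1.49, adjusted p = 0.36). Of the other marker lists, 0 of 3 pollen genes and 0 of 7 root genes tested were called (1 and 0 at an unadjusted p under 0.05). The summed signal of 8 pollen genes was 0.476 to 0.504 in starved and 0.493 to 0.554 in resupplied plants, and that of 12 root genes was 0.105 to 0.163 in starved and 0.0911 to 0.116 in resupplied plants.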

How the data were processed

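Cyanine-3-labelled cRNA from shoots was hybridized to Arabidopsis V4 oligo arrays (1 colour). The deposited scanner files hold intensity values, background-corrected within each array by Agilent Feature Extraction 12.1.1.1 per the file headers, and other columns of flags. The deposited series matrix holds linear intensity values of the same arrays and served as an alternative. Processed signals were put on a log2 scale, repeat spots were then averaged without those marked as outliers, and each array's 75th percentile was subtracted. It ranged from 2221 to 3122 over the 6 arrays, on which 73.6% to 76.1% of probes were well above background and 0 spots were saturated; the number of arrays limits the precision. Probes well above background on all 3 arrays of any of the 6 groups were tested (29415 probes, 21059 genes) in limma 3.58.1 (R 4.3.3) with group means over all 18 arrays and empirical Bayes, and the interaction compared the 2 lines. SE are from this model. The p-values were adjusted over all tested probes.

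Loci were named through RefSeq symbols. Named genes were the 15 largest rises and 15 largest falls among called genes above background on all 6 arrays, up to 10 each way not above background in the dimmer group, called list members, up to 6 members of a list by role, and the 3 largest changes of a family; others were chosen after their values were seen. For genes not above background on any array of a group, "at least" folds set the brighter group's mean against a floor, taken on every array as the dimmest signal well above background or the gene's own where that was higher. The members and gene lists were chosen with earlier results of these data known. Alternatives were another normalization or background correction, the filter, the arrays fitted, slide, replicate number, probe choice and leaving out each array. The fit was tested on simulated data.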

Additional observations from a re-analysis of the deposited data

Results flagged for a closer look

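The change with KNO3 resupply differed between AOpro(mut)-AO and AOpro(wt)-AO plants by the interaction test for the following genes, each given as the log2 change in AOpro(mut)-AO minus that in AOpro(wt)-AO plants. The 2 comparisons share no array. Such a difference does not show whether the starved or the resupplied levels of the lines differed. Among nitrate and nitrogen genes the difference was -0.68 for NIA1, -0.68 for NIA2, -1.0 for NIR1, -0.64 for UPM1, -0.88 for CLC-A, -0.88 for LBD37, -1.53 for LBD39, -2.50 for BT2 and -1.39 for IPT3. It was -3.82 for AT4G15660, -3.46 for AT4G15690 and 1.66 for AT3G62960 of the glutaredoxins, and -0.77 for RR5 and -2.04 for ARR6. Genes that fell less in AOpro(mut)-AO plants had positive differences, 1.12 for GLN1;4, 1.02 for ALN, 1.61 for BCAT-2, 1.70 for NIT4, 1.63 for PAP1, 1.32 for FD, 0.78 for FT, 2.04 for AHP4 and 1.97 for UGT76B1.

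Sulfur and cell wall genes that rose less were ATSDI1 (-1.33), AT5G26220 (-0.71), SULTR4;2 (-0.59) and EXLA1 (-1.49). The difference was 1.81 for LAP5, 1.89 for AT3G52130 and 1.43 for AT5G59330, which rose more in AOpro(mut)-AO plants. Defence genes that fell more there were WRKY54 (-0.98), WRKY58 (-1.06), ACD6 (-0.94), PCC1 (-1.01), LURP1 (-1.13), AT3G48080 (-1.07) and UGT76E1 (-1.5).

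For a further 8 genes the test passed, but at least 1 of the 4 groups had fewer than 2 of its 3 arrays above background. Their values are fitted differences that include signals at the background, and their sizes were not measured. They were -4.57 for AT4G15670 and -4.37 for AT4G15680, with no starved AOpro(wt)-AO array above background, and 4.15 for MYB90 and 2.84 for TSF, with 1 resupplied AOpro(wt)-AO array above it. They were 3.69 for AT5G24820 and 3.86 for LCR67, with no starved array of either line above background, and -1.68 for ARFD1A and -2.38 for AT5G54700, with no resupplied AOpro(mut)-AO array above it.

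Of 3349 tested probes without a gene in the annotation used, which entered no comparison above, 12 (0.358%) were higher and 21 (0.627%) lower with KNO3 resupply at the same limits, beside 0.698% and 0.85% of genes.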

How the results depend on the processing

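The counts of 147 genes called higher and 179 called lower moved by more than 1.5 times with normexp background correction (49 and 61), with normexp and quantile normalization (72 and 56) and with no minimum fold change (3287 and 2995); the cause was not tested for the first 2. Without 1 array, 108 to 173 genes were called higher and 142 to 279 lower. The 279 came without starved replicate 1 and was also more than 1.5 times the 179. Quantile normalization gave 164 and 170 genes, no filter on dim probes 165 and 211 and the deposited series matrix 125 and 127. The 165 held 131 of the 147, and the 211 held 174 of the 179. Among the 135 named genes, 18 lost their call with the series matrix, 9 with only the 6 compared arrays fitted and 4 without the filter. The replicate numbers did not pair the arrays (correlations of the deviations of same-numbered arrays -0.284, 0.0227 and -0.0603), and with the replicate number as a block 143 and 185 genes were called, GLYI7, HRS1 and CYP704B1 lost their calls (adjusted p = 0.057, 0.054 and 0.051), the calls of the other named genes did not change, and the interaction passed for SESA5 (adjusted p = 0.039) and no longer for AT5G24820 (0.053), AT5G26220 (0.055) and FT (0.053). Of the 135 named genes, 65 lost their call with normexp and 49 with normexp and quantile normalization. The 135 include genes such as AO, NIR1 and FT that had no call to lose, so the share lost among called genes was larger. With slide as a term 6 named genes lost their call, AT4G16270, GLYI7, NRT2.5, HRS1, CYP79F2 and CYP94B3 (adjusted p = 0.054, 0.087, 0.055, 0.058, 0.056 and 0.067). With the spots marked as outliers kept, an alternative chosen after seeing the data, CYP94B3 lost its call (adjusted p = 0.051) and 0 others of the 135 named genes changed theirs. By another probe, among named genes that had another tested probe, 6 lost their call, 2 gained a call and 25 were the same.

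Sign changes were seen only in genes that were not called, NIR1 and UPM1 with quantile normalization (-0.06 and -0.02), AO, FT, UPM1 and DFR with normexp (-0.07, 0.00, -0.06 and 0.02), AO, FT, NIR1, UPM1 and DFR with normexp and quantile normalization (-0.06, 0.03, -0.08, -0.10 and 0.00), FT and DFR with slide as a term (0.01 and 0.05), and AO by another probe (-0.24). Without 1 array the log2 change ranged over -0.12 to 0.26 for AO, -0.13 to 0.02 for FT, -0.01 to 0.18 for NIA1, -0.04 to 0.11 for NIR1, 0.00 to 0.49 for TT4, -0.04 to 0.06 for UPM1 and -0.25 to 0.05 for DFR.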
